A study of Brassica rapa with 12 samples.

Results

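In Brassica rapa, 51 genes were next to absent from both stems and buds of BrCHR39-silenced plants while being read in both tissues of wild type plants. The genes were chosen by their raw read counts, summed over the 3 libraries of a group: at most 3 reads in silenced stems, at most 3 in silenced buds, at least 50 in wild type stems and at least 50 in wild type buds. Of the 41020 genes in the count table, 51 met all of these limits, and 21129 others had at least 50 reads in each wild type tissue without meeting them. The plants were 8 weeks old and the libraries fell into 4 groups of 3: stems of BrCHR39-silenced lines, stems of wild type plants, buds of BrCHR39-silenced lines and buds of wild type plants. All plants grew in pots in a climate chamber. The labels do not give how the gene was silenced, how many lines and plants were used or whether the libraries are biological replicates, so the spread between libraries, and every p-value below, may be technical. Whether the silenced lines and the wild type plants share a genetic background is not given either, so silencing and a difference in background cannot be told apart in any silenced against wild type value below.

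Chromatin-remodelling ATPases use the energy of ATP to slide, evict or exchange nucleosomes and so change which stretches of DNA the transcription machinery can reach. The series presents BrCHR39 as a protein of this kind and connects it with apical dominance, in which the growing shoot tip holds back side shoots. Brassica rapa, the species of Chinese cabbage and turnip, carries many genes in closely related copies, and reads that match several copies can be split or lost when they are counted. The files list genes by identifier only, and the gene table used here named none of the 51, so their functions are not described, the level of BrCHR39 itself was not analysed here, and no tissue marker could be looked up.

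Library totals lay between 12275190 and 15693349 reads. Libraries of the same group differed by 1.5 to 1.64 times the variance of counting alone, against 32.9 times or more for libraries of different groups.

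The 51 genes together took 3, 3 and 11 reads in the 3 silenced stem libraries, against 7759, 7799 and 7334 reads in the 3 wild type stem libraries. In bud they took 3, 5 and 6 reads in the silenced libraries, against 5409, 6512 and 6848 reads in the wild type libraries. Every wild type library held at least 1 read of every one of the 51 genes, whereas in each silenced library between 44 and 49 of them had none. The low reads in silenced plants are what the genes were chosen on, so they are given as a description with no test. In whole tissue, fewer cells that carry a transcript and less transcript per cell cannot be told apart.

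**Figure D1:**
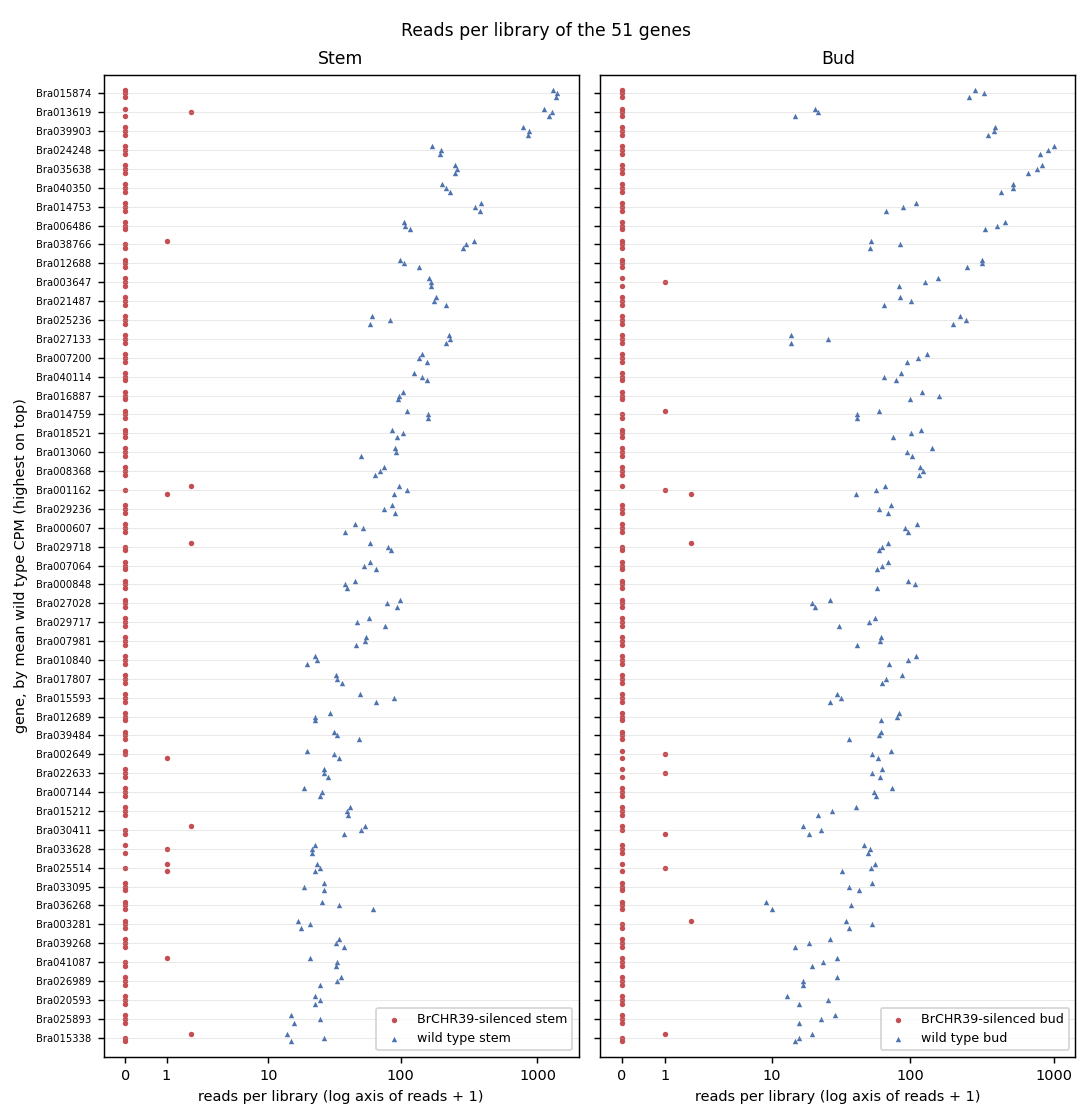
Reads in each library (log axis of reads + 1) for each of the 51 genes, with stem on the left and bud on the right; red circles are the 3 silenced libraries and blue triangles the 3 wild type libraries, and genes are ordered by their mean wild type level. No silenced library held more than 2 reads of any gene, and 37 genes had 0 reads in all 6 silenced libraries.

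For most of the genes no read at all was left. In silenced stems 41 of the 51 had 0 reads, in silenced buds also 41, and 37 had 0 reads in all 6 silenced libraries. The other 14 carried 1 to 6 reads over the 6 silenced libraries; 6 of them had reads in both silenced tissues, 4 in stem alone and 4 in bud alone. No single silenced library held more than 2 reads of any of the 51. Silenced stem replicate 3 held 11 of the 17 reads found in silenced stems.

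Set against all genes with at least 50 reads in each wild type tissue, the 37 genes at 0 in both silenced tissues were the largest class among those with up to 10 reads. Only 7 genes had 1 read as the higher of their silenced stem and silenced bud sums, 6 genes had 2, and 1 gene had 3. Past the limit of the rule, 3 genes had 4 reads, 2 had 5 and 2 had 6, and each further step up to 10 reads held 4 to 7 genes.

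**Figure D2:**
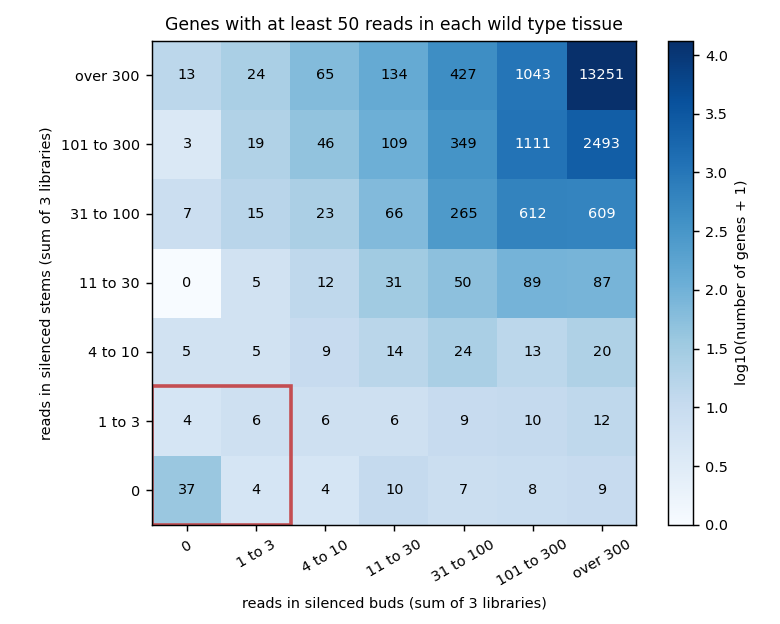
Number of genes by reads in silenced buds (x) and silenced stems (y), each the sum of 3 libraries, among the 21180 genes with at least 50 reads in each wild type tissue; shading is log10(number of genes + 1), and the red frame marks the 51 genes. The cell with 0 reads in both holds 37 genes and the other 3 cells in the frame hold 4, 4 and 6, while 13251 genes lie over 300 reads in both.

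By the limit of 3 reads, loss in 1 tissue was more common than loss in both. Of the genes with at least 50 reads in each wild type tissue, 132 had at most 3 reads in silenced stems and 147 at most 3 in silenced buds, so the 51 shared genes were 38.6% of the stem list and 34.7% of the bud list. The 81 genes lost in stem alone had a median ratio of silenced over wild type bud reads of 0.412, on library sizes scaled by TMM (edgeR's trimmed mean of M-values). Of them, 28 stood between 0.5 and 2, 22 under 1/8 and 8 over 2. For the 96 genes lost in bud alone the median ratio in stem was 0.866, and 37 stood between 0.5 and 2, 15 under 1/8 and 23 over 2. Some genes counted as lost in 1 tissue were thus much lower in the other silenced tissue as well.

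The mirrored limits, at least 50 reads in each silenced tissue and at most 3 in each wild type tissue, were met by 1 gene. Bra036206 had 43, 40 and 23 reads in silenced stems and 127, 144 and 123 reads in silenced buds, against 0 reads in all 6 wild type libraries. Of the 20436 genes with at least 50 reads in each silenced tissue, 34 had at most 3 reads in wild type stems and 5 at most 3 in wild type buds. The imbalance held at other limits: with at least 30 reads on the high side, 75 genes were lost and 4 gained; with at least 100, 29 and 1; with 0 reads on the low side, 37 and 1; and with up to 10 reads, 80 and 7. The difference between these counts was not tested.

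Individual genes spanned a wide range in wild type plants. Bra015874 had the highest mean wild type CPM of the 51 (CPM is the read count scaled to the TMM library size). It had 0, 0 and 0 reads in silenced stems, against 1363, 1386 and 1302 reads in wild type stems. In bud it had 0, 0 and 0 reads in silenced libraries, against 258, 328 and 283 reads in wild type libraries. With each silenced group set at 3 reads over its 3 libraries, its level was at least 1271-fold lower in silenced stems and at least 313-fold lower in silenced buds. Such limits, and the intervals given below, cover counting error only. They do not allow for the genes having been chosen by these same reads, which favours large folds.

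Bra013619 was the one gene among the 8 with the highest wild type CPM that kept any read. It had 0, 2 and 0 reads in silenced stems, against 1211, 1272 and 1115 reads in wild type stems, a ratio of 1694-fold (95% exact interval 469 to 13990). In wild type buds this gene was itself low. Its bud reads were 0, 0 and 0 in silenced libraries against 15, 22 and 21 in wild type libraries, which places silenced buds at least 20.9-fold lower.

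Bra039903 had many reads in both wild type tissues. Its reads were 0, 0 and 0 in silenced stems against 856, 870 and 787 in wild type stems, at least 789-fold lower. In bud they were 0, 0 and 0 in silenced libraries against 350, 386 and 391 in wild type libraries, at least 406-fold lower. Bra015874, Bra013619 and Bra039903 together made up 44.4% of the reads of the 51 genes in wild type stems.

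Bra024248 led in bud. It had 0, 0 and 0 reads in silenced buds, against 797, 914 and 1002 in the wild type, a level at least 977-fold lower. In stem it had 0, 0 and 0 reads in silenced libraries against 196, 197 and 170 reads in wild type libraries, at least 177-fold lower. All 6 silenced libraries were at 0, and all 6 wild type libraries held at least 170 reads.

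Bra035638 and Bra040350 showed the same order of tissues. Bra035638 had 0, 0 and 0 reads in silenced buds against 667, 770 and 822 reads in wild type buds, and 0, 0 and 0 in silenced stems against 252, 259 and 252 in wild type stems. Bra040350 had 0, 0 and 0 reads in silenced buds against 427, 520 and 524 reads in wild type buds, and 0, 0 and 0 in silenced stems against 231, 214 and 200 in wild type stems. Bra024248, Bra035638 and Bra040350 held 34.3% of the reads of the 51 genes in wild type buds.

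Bra014753 and Bra006486 complete the 8 with the highest wild type CPM. Bra014753 had 0, 0 and 0 reads in silenced stems against 381, 349 and 386 in wild type stems, and 0, 0 and 0 in silenced buds against 67, 88 and 110 in wild type buds. Bra006486 leaned the other way: it had 0, 0 and 0 reads in silenced stems against 117, 108 and 106 in wild type stems, and 0, 0 and 0 in silenced buds against 333, 405 and 460 in wild type buds.

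For genes at 0 reads in a silenced tissue, the limits on the fold followed the wild type reads. The 41 genes at 0 in silenced stems were at least 17.6-fold to at least 1271-fold lower, with a median limit of 64.3-fold, and the 41 at 0 in silenced buds were at least 19.4-fold to at least 977-fold lower, with a median limit of 78.1-fold. In each tissue 14 of these genes had a limit over 100-fold. The 10 genes with reads left in silenced stems were 26.4-fold to 1694-fold lower, and the 10 in silenced buds 55.1-fold to 395-fold lower. Their exact intervals reached lower, in Bra015338 down to 6.97-fold in stem and 9.45-fold in bud, and differ in kind from the limits at 3 reads. A group with 0 reads could hold a gene at up to 0.0816 CPM in silenced stems and 0.0576 CPM in silenced buds.

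The few reads that were left lay mostly outside the genes with the highest wild type CPM. Bra001162 had the most, with 1, 0 and 2 reads in silenced stems against 89, 111 and 98 in wild type stems, and 2, 1 and 0 in silenced buds against 41, 57 and 66 in wild type buds. Its level was 93.5-fold lower in silenced stems (95% exact interval 31.7 to 456) and 59.0-fold lower in silenced buds (19.9 to 289). These reads were spread over 4 of the 6 silenced libraries. Bra029718 had 0, 0 and 2 reads in silenced stems against 85, 81 and 60 in wild type stems, and 0, 0 and 2 in silenced buds against 60, 63 and 69 in wild type buds. Bra030411 had 0, 0 and 2 reads in silenced stems against 38, 51 and 55 in wild type stems, and 1, 0 and 0 in silenced buds against 19, 23 and 17 in wild type buds. Bra025514 had 1, 0 and 1 reads in silenced stems against 23, 25 and 24 in wild type stems, and 0, 1 and 0 in silenced buds against 33, 53 and 56 in wild type buds. In each of these 4 genes the highest silenced library lay below the lowest wild type library of the same tissue. The limits of the rule all but ensure such a gap.

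Near the limits of the rule the counts were small. Bra015338 lay closest to the wild type minimum, with 1 read in silenced buds and 2 in silenced stems, against sums of 51 reads in wild type buds and 56 in wild type stems. Bra027133 and Bra020593 came next, both with 0 reads in silenced buds, against 54 and 55 in wild type buds. Just outside, 3 genes with 0 reads in both silenced tissues fell short in wild type buds. There Bra039805 had 46 reads, Bra007198 also 46 and Bra012640 had 37. Bra027510 missed with a sum of 48 reads in wild type stems, and Bra004672 and Bra033253 with 44 each. Bra006487 also had 44 reads there. Other genes missed on the silenced side by 1 to 3 reads. Bra017460 and Bra017699 had 4 reads in silenced stems and Bra029751 had 5. In silenced buds Bra019578 had 4 reads, Bra004175 had 5 and Bra000096 had 6. In all, 96 genes missed only the limit in silenced stems, 81 only that in silenced buds, 289 only that in wild type stems and 87 only that in wild type buds.

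Against the other genes read in both wild type tissues, the 51 had low wild type levels and few reads. Per kilobase of coding length the median gene of the 51 stood at 5.37 FPKM (reads per kilobase, scaled to the library total) in wild type stems, where the median of all 21180 genes with at least 50 reads in each wild type tissue was 13.3 FPKM. In wild type buds it stood at 5.88 FPKM, where all such genes had a median of 16.4 FPKM. The spread among the 51 was wide, from 0.439 to 199.6 FPKM in wild type stems and from 0.485 to 191.0 FPKM in wild type buds. Split into 5 classes of equal size by mean wild type CPM, which follows reads and not length, 34 of the 51 lay in the lowest class, under 7.08 CPM, and 1, Bra015874, in the highest. The rule itself favours genes with few reads, since 50 wild type reads meet it at some 16-fold and more reads only at a larger fold. With a limit of at least 16-fold lower in both silenced tissues in place of the limit on reads, a choice made after the data were seen, 92 genes qualified, the 51 among them. The 5 classes, from low to high, then held 47, 17, 15, 7 and 6.

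The coding sequences of the 51 were somewhat short. Their median coding length was 813 bases, against 1149 bases for all genes read in both wild type tissues, and it ran from 177 bases in Bra025893 to 4206 bases in Bra012688. In 5 classes of equal size by coding length, from short to long, they numbered 18, 11, 12, 1 and 9. The shortest class ended at 648 bases and the longest began at 1875. Neither distribution was tested against the other genes. The rule works on reads and favours genes with few of them, and lengths were not compared among genes with like numbers of reads.

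**Figure D3:**
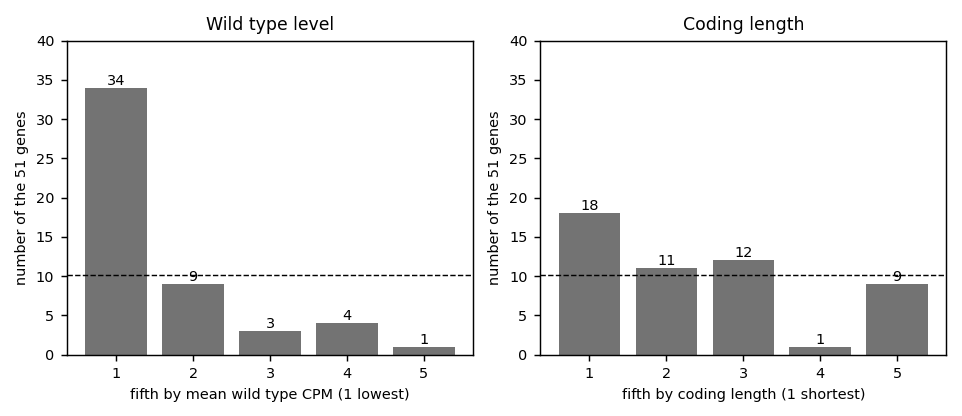
Number of the 51 genes in each of 5 classes of equal size of the 21180 genes with at least 50 reads in each wild type tissue, by mean wild type CPM on the left and by coding length on the right; the dashed line is an equal share of 10.2 genes. The lowest class by CPM holds 34 of them and the highest 1, and the shortest class by length holds 18.

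Bra025893, the shortest, had 0, 0 and 0 reads in silenced stems against 16, 25 and 15 in wild type stems, and 0, 0 and 0 in silenced buds against 16, 23 and 29 in wild type buds. Bra012688, the longest, had 0, 0 and 0 reads in silenced stems against 137, 106 and 99 in wild type stems, and 0, 0 and 0 in silenced buds against 249, 317 and 314 in wild type buds. Both genes, like all 51, were chosen for their low reads in silenced plants.

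In the median gene the replicate libraries varied about as much as counting alone would give. The coefficient of variation between the 3 libraries was 10.9% in the median gene in wild type stems, where counting alone would give 12.1%, and 13.6% in wild type buds, where it would give 12.6%. Bra036268, named for its spread after its values were seen, varied most in both tissues. It had 0, 0 and 0 reads in silenced stems against 63, 35 and 26 in wild type stems, and 0, 0 and 0 in silenced buds against 10, 38 and 9 in wild type buds.

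Which wild type tissue held more of each transcript is the one comparison that the rule did not fix, beyond asking for reads in both. All 51 passed the filter on low counts, and all owe this to the wild type libraries. Wild type buds against wild type stems gave 40 of the 51 as called (edgeR's quasi-likelihood test on all genes, Benjamini-Hochberg adjusted p under 0.05), or 78.4%, where 86.3% of all 28114 genes tested and 86.1% of those with at least 50 reads in each wild type tissue were called. In the lowest of the 5 classes by CPM 24 of 34 were called, and 72.3% of all genes there, so the share was close to the background at that level. Of the 40, 18 were higher in bud and 22 lower. Among genes with at least 50 reads in each wild type tissue, 8787 were called higher and 9458 lower. Among all genes tested, 12827 were called higher and 11424 lower. With library totals alone in place of TMM scaling, 22 of the 51 were higher and 17 lower, and with limma on log2(FPKM + 1), 22 and 18. No such split of the other genes is given for these 2 settings. With limma, 49 of the 51 passed the filter on low FPKM.

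Differences of at least 2-fold were more often towards lower levels in bud, 15 against 8. Library totals alone turned this to 12 lower and 17 higher, and limma on log2(FPKM + 0.1) to 12 lower and 16 higher. Limma on log2(FPKM + 1) gave 10 lower and 9 higher. These settings shift all genes by 0.35 to 0.37 towards bud, and no share of other genes at this size is given for them. The 8 genes called higher in bud at this size were 15.7% of the 51, against 30.8% of all genes tested and 22.3% of the genes read in both wild type tissues. The 15 called lower were 29.4%, against 24.0% of all genes tested and 22.8% of those read in both. Over the 51 the median log2 fold change was -0.25 (0.11 with library totals alone), against 0.11 for all genes tested and -0.05 for genes read in both wild type tissues. The 51 thus lay 0.21 below the genes read in both. Library totals alone shifted all genes by 0.37, which moves both medians alike, so the difference stayed at 0.21 and adds no support. These shares are descriptions, and whether the 51 differ from other genes in them was not tested.

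**Figure D4:**
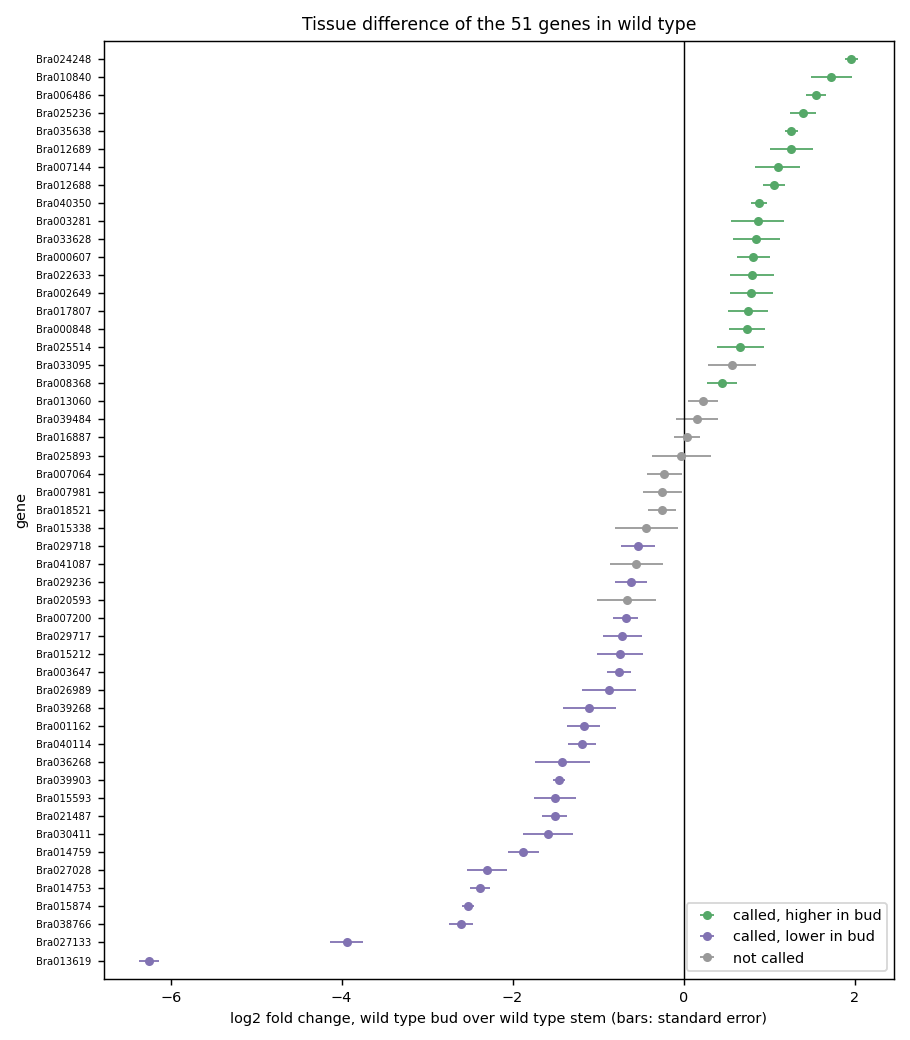
Log2 fold change of wild type bud over wild type stem for each of the 51 genes (edgeR; bars are standard errors), coloured by whether the difference was called. Called genes run from -6.25 in Bra013619 to 1.96 in Bra024248, with 22 lower and 18 higher in bud and 11 not called.

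Among genes lower in bud, Bra013619 differed by far the most, with 1.20 ± 0.112 CPM in the bud libraries and 92.0 ± 3.17 CPM in the stem libraries of the wild type (mean ± SD of 3 libraries, here and below). Its log2 fold change was -6.25 (SE 0.116, edgeR adjusted p = 1.13e-99). Bra027133 averaged 1.12 ± 0.389 CPM in wild type buds and 17.3 ± 0.957 CPM in wild type stems, a log2 fold change of -3.94 (SE 0.193, edgeR adjusted p = 1.67e-44). It had 0, 0 and 0 reads in silenced stems against 215, 232 and 228 in wild type stems, and 0, 0 and 0 in silenced buds against 14, 26 and 14 in wild type buds. Both are thus close to the wild type minimum in bud and far above it in stem.

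Bra038766 and Bra015874 followed. Bra038766 averaged 3.92 ± 1.01 CPM in wild type buds and 23.9 ± 3.16 CPM in wild type stems, a log2 fold change of -2.61 (SE 0.140, edgeR adjusted p = 2.31e-40). In silenced stems it kept 1 read, in replicate 3, against 286, 301 and 345 in wild type stems, and in silenced buds it had none against 52, 84 and 53 reads in wild type buds. Bra015874 averaged 18.1 ± 1.84 CPM in wild type buds and 104 ± 0.352 CPM in wild type stems, a log2 fold change of -2.52 (SE 0.0671, edgeR adjusted p = 4.26e-77). Genes named for their difference were picked among called genes whose libraries did not overlap between tissues. In all 4 genes the highest wild type bud library therefore lay below the lowest wild type stem library.

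Among genes higher in bud the differences were smaller. Bra024248 averaged 56.3 ± 1.69 CPM in wild type buds and 14.4 ± 0.717 CPM in wild type stems, a log2 fold change of 1.96 (SE 0.0814, edgeR adjusted p = 1.02e-52). Bra010840 averaged 5.68 ± 0.514 CPM in wild type buds and 1.72 ± 0.175 CPM in wild type stems, a log2 fold change of 1.73 (SE 0.240, edgeR adjusted p = 4.77e-11). It had 0, 0 and 0 reads in silenced buds against 71, 96 and 109 in wild type buds, and 0, 0 and 0 in silenced stems against 20, 24 and 23 in wild type stems.

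Bra006486 had a log2 fold change of 1.55 (SE 0.113) and Bra025236 one of 1.40 (SE 0.149). Bra025236 had 0, 0 and 0 reads in silenced buds against 198, 243 and 222 in wild type buds, and 0, 0 and 0 in silenced stems against 59, 83 and 62 in wild type stems. Both were called by edgeR, the larger adjusted p being 1.84e-16. Being called and having no overlap between wild type buds and stems were conditions for naming them here.

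The other 4 of the 8 genes with the highest wild type CPM were called as well. Bra039903 averaged 23.5 ± 1.67 CPM in wild type buds and 64.3 ± 1.29 CPM in wild type stems, Bra014753 5.44 ± 0.707 CPM and 28.6 ± 2.34 CPM, and both were lower in bud. Bra035638 averaged 46.9 ± 1.28 CPM in wild type buds and 19.5 ± 0.522 CPM in wild type stems and was higher in bud, as was Bra040350, at 30.5 ± 0.750 CPM and 16.5 ± 0.870 CPM.

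Of the 11 genes not called, 8 had overlapping libraries of the 2 tissues and 3 did not. The share of other genes with such an overlap was not worked out, so the counts of overlap have no background beside them. Of the 40 called, 1, Bra036268, had overlapping libraries. Its log2 fold change of -1.42 (edgeR adjusted p = 2.54e-05) came to -2.37 without wild type bud replicate 2, and DESeq2 did not call it (adjusted p = 0.0832). The call on Bra025514, higher in bud by 0.665 on the log2 scale, was lost without wild type stem replicate 1, wild type bud replicate 2 or wild type bud replicate 3, with edgeR adjusted p-values of 0.0663 to 0.0741, with DESeq2 (adjusted p = 0.077) and with limma on log2(FPKM + 0.1) (adjusted p = 0.105). In these settings its log2 fold change was 0.60 to 0.62 in edgeR, 0.63 in DESeq2 and 0.999 in limma.

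Consecutive identifiers occurred in 2 pairs. The files give no positions, so whether consecutive numbers mean neighbouring genes was not tested. Bra012688 and Bra012689 form the first pair, and both have long coding sequences, of 4206 and 3885 bases. Bra012689 had 0, 0 and 0 reads in silenced buds against 62, 81 and 83 in wild type buds, and 0, 0 and 0 in silenced stems against 23, 23 and 30 in wild type stems. Both were called higher in bud, by 1.06 (SE 0.124) and 1.26 (SE 0.248) on the log2 scale, with edgeR adjusted p-values of 2.65e-14 and 1.69e-06.

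Bra029717 and Bra029718 form the other pair. Bra029717 had 0, 0 and 0 reads in silenced stems against 77, 48 and 58 in wild type stems, and 0, 0 and 0 in silenced buds against 31, 51 and 56 in wild type buds. Both were called lower in bud, with log2 fold changes of -0.72 and -0.53 (edgeR adjusted p = 0.00255 and 0.00946). Both calls were lost without wild type stem replicate 1 (edgeR adjusted p = 0.0578 and 0.0558), with library totals alone (0.139 and 0.419) and under all 3 limma settings on log2 FPKM, where the adjusted p ran from 0.0799 to 0.177 for Bra029717 and from 0.3 to 0.7 for Bra029718.

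The identifiers one number lower or higher than the 51 were looked at next. Of these identifiers 101 were listed; 4 belonged to the pairs above, 42 had under 50 wild type reads in all and 19 had 50 or more without reaching 50 in each tissue. The other 36 had at least 50 reads in each wild type tissue, and 21 of them, or 58.3%, were within 2-fold between silenced and wild type in both tissues, against 58.0% of all 21129 such genes outside the 51. Among the 55 that had at least 50 wild type reads and were not themselves among the 51, 3 had at most 3 reads over all 6 silenced libraries, or 5.45%, against 417 of 27033 such genes in the whole table, the 51 included, or 1.54%. This difference was not tested.

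Those 3 were Bra006487, Bra007201 and Bra040113, singled out after their values were seen. Bra006487 had 0 reads in silenced stems against 44 in wild type stems, and 0 in silenced buds against 85 in wild type buds, and its neighbour by number Bra006488 had 0 against 110 in stem and 0 against 32 in bud. The 2 follow Bra006486 and make with it 3 consecutive numbers with wild type reads in both tissues and none in silenced plants. Next to Bra007200, one of the 51, Bra007201 had 0 reads in silenced stems against 758 in wild type stems and 0 in silenced buds against 12 in wild type buds, and Bra007198, just under the limit in bud, had 0 against 106 in stem and 0 against 46 in bud. Bra040113, next in number to Bra040114 of the 51, had 0 against 3 in stem and 0 against 106 in bud.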

How the data were processed

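Total RNA of whole stems and buds was taken up in Trizol and sequenced on Illumina libraries, per the labels' protocols. Neither strand nor read layout is known from the sources used here, so reads of overlapping genes cannot be told apart. The deposited table of raw counts holds whole reads per gene. The authors' FPKM values follow from those counts: dividing count by library total and FPKM returned a whole length, within a relative tolerance of 1e-06, for 35651 genes, and every length was a multiple of 3, hence coding length. Tools named in the submitters' processing notes are featureCounts 2.0.1, HISAT2 2.1.0, TopHat2 and Bowtie 1.0.1, with no role stated; no genome build was given in the sources used. Library totals were 12275190 to 15693349 reads. Intervals and floors of 3 reads cover counting error only and do not allow for the choice of the genes by the same reads.

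The members, lists and limits were chosen with earlier results of these data known. Counts were fitted in edgeR 4.0.16 (R 4.3.3) on all 12 libraries, with filterByExpr (minimum count 10, 28114 genes kept), TMM and 1 term per group; the SE is the log2 fold change divided by the root of its F. Folds for groups with 1 to 3 reads have exact Clopper-Pearson intervals at 95%. Scripts were tested on simulated data. The genes named were the 8 with the highest wild type CPM and the 4 with the largest fold change in each direction between tissues. The latter were taken among called genes whose wild type bud and stem libraries did not overlap. Also named were the 4 with most silenced reads, those nearest each limit, the shortest and longest, and consecutive identifiers. Of all identifiers, 1 was named by the gene table (CAAS_Brap_v3.01) and none of the 51. Alternatives were other scalings, no filter, DESeq2 1.42.0, limma 3.58.1 on log2 FPKM, fewer libraries, a replicate block and other limits.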

Additional observations from a re-analysis of the deposited data

How the results depend on the processing

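The number of genes that met the rule was 29 with at least 100 wild type reads and 80 with up to 10 silenced reads. In a choice made after the data were seen, it was 92 with a limit of at least 16-fold lower in both tissues. Leaving out 1 library at a time, with the limit on reads for its group lowered, gave 48 to 55. Of the 51, 40 were called between wild type tissues, 40 with the replicate number as a block, and 35 to 42 under the other changes of method or library; 23 were called at 2-fold or more. The median log2 fold change of the 51 was 0.11 with library totals alone, 0.10 with limma on log2(FPKM + 1), 0.11 on log2(FPKM + 0.1) and 0.0874 without the filter on low FPKM. Those settings shift all genes by 0.34 to 0.37 and so move the median across 0. The uncalled value of Bra025893, -0.03, turned to 0.34 with library totals alone, 0.0597 with upper-quartile scaling, 0.30 with limma on log2(FPKM + 1), with or without the filter, and 0.34 on log2(FPKM + 0.1), and ran from -0.17 to 0.21 when 1 wild type library was left out. Of the 40 calls, 29 held under all 16 alternatives that tested them (15 higher and 14 lower in bud), and no gene called in both a setting and the main analysis changed direction. The share of calls that other genes kept under these alternatives was not worked out, so the 29 have no background beside them. Over the 22 genes named by rule, 326 values kept their direction and side of the threshold, 15 lost a call, 2 gained one and 7, all of Bra025893, changed sign. Deviations of same-numbered libraries correlated at -0.0148 to 0.0116, so no pairing by number was seen. A shared plant or batch is not excluded by this, and the labels do not give one. The replicate block lost none of the 40 calls. A gene with 0 reads in a silenced group is not shown to be absent: the depth allows 3 reads over the group.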
